A study of Mus musculus with 8 samples.

Results

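Soyasaponins are bitter, soap-like defence compounds of soybean and other legumes. Each consists of a triterpene core, the soyasapogenol or aglycone, with sugars attached. In soyasaponins I to V the sugars form a chain that starts with glucuronic acid. Soyasaponins are poorly absorbed as such, and gut bacteria are known to strip the sugars from them step by step and to release the soyasapogenols. Soyasapogenol B is the core of soyasaponins I to V, soyasapogenol A carries an additional hydroxyl group, and soyasapogenol E has a ketone in place of a hydroxyl group.

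The masses of 12 soyasaponin and soyasapogenol formulas were taken from a mass spectrometric profile of mouse faeces. A table row was assigned to a formula when its mass lay within 3 ppm of the neutral formula or of the formula with 1 hydrogen replaced by sodium. This gave 11 of the 2429 rows, for 9 of the 12 formulas, all as neutral formulas and none as the sodium form. Rows were assigned to formulas by mass alone, without their intensities, but the formulas were chosen with earlier results of these data known. The largest error of an assigned row was 0.699 ppm.

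The 8 faecal extracts came from females of the inbred mouse strain C57BL/6 and were sprayed without chromatography into an ion cyclotron resonance instrument, which measures mass precisely enough to propose formulas. Of these, 4 came from untreated mice and 4 were taken 24 h after 20 mg of streptomycin by oral gavage, an antibiotic that blocks the bacterial ribosome. Per the series text the animals were age-matched, without a stated age, and faeces were sampled before and again after the dose, so the drug and the time of sampling cannot be told apart. Nothing in the labels ties a sample to its own mouse, so p-values measure only the spread between these samples, which may be technical. The labels name no diet. Each sample was acquired 2 times, and its value is the mean of both acquisitions in relative intensity, counting an acquisition without the mass as 0.

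A name below stands for a formula. Isomers share a mass, and the profile does not separate them: the formula of soyasapogenol E is also that of the plant triterpene acids oleanolic and ursolic acid and that of soyasapogenol A less water, and the formula of soyasaponin V is also that of soyasapogenol A with the sugar chain of soyasaponin I. Those of soyasaponins I and II are also sophoradiol formulas with hexose in place of rhamnose. Intensities of different compounds depend on how well each ionises and were not compared as amounts.

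Every glycoside row was listed in the streptomycin samples and in none of the untreated samples, whereas every sugar-free row was lower after streptomycin. Of the 7 rows with sugars, which covered 6 formulas, all 7 were listed in streptomycin samples only. Of the 4 sugar-free rows, 2 were listed in untreated samples only and the other 2 were listed in both groups and lower after streptomycin. By limma across all 2429 masses, 7 of the 11 rows were higher and 4 were lower. Of all masses measured, 52.7% were called higher and 36.7% lower, and among masses of at least 450 Da these shares were 56.3% and 32.0%. Listing in streptomycin samples only applied to 47.3% of all masses and to 49.6% of those of at least 450 Da. Listing in untreated samples only applied to 26.6% and 24.4%. The calls of masses found in 1 group only rest on the value put in for 0, so no fold is given for them.

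The background shifts at high mass, where 6 of the 7 glycoside rows lie. Of the 135 masses of at least 750 Da, 36.3% were listed in streptomycin samples only and 48.9% in untreated samples only, a limit set after the values were seen. Untreated samples listed 86 masses in that range, with sample values from 0.145 to 110, the highest of an added calibrant, and a median of 0.700. The treated means of soyasaponins I, III and IV lay above this median and those of soyasaponins II and V, at 0.334 and 0.336, below it; the part of a detection limit in the listing was not tested.

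**Figure D1:**
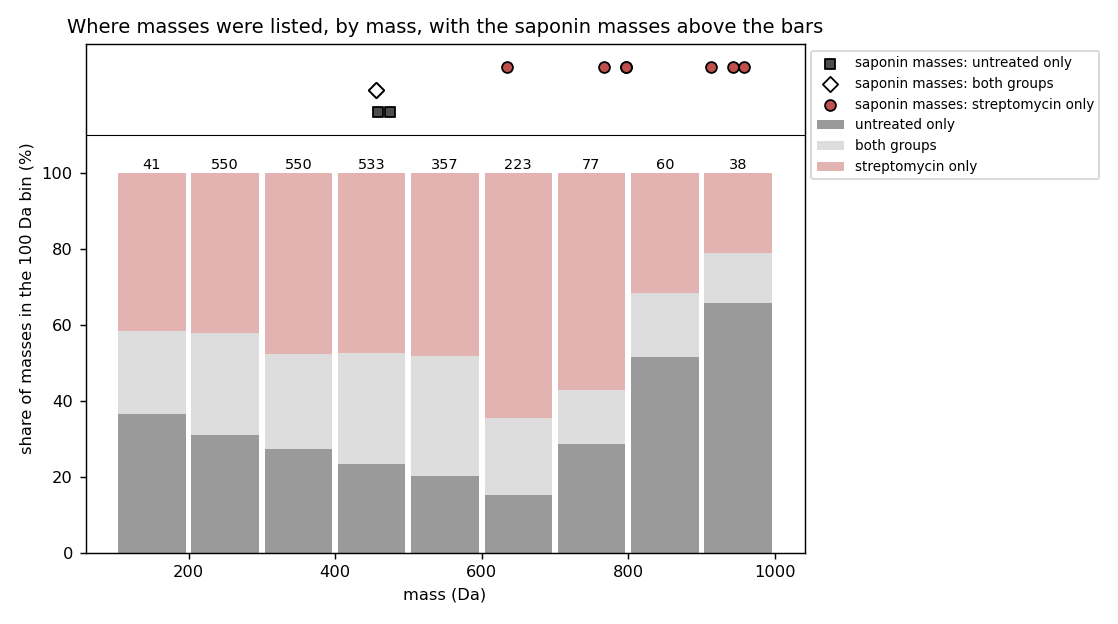
Stacked bars give, for each 100 Da bin, the share of masses (%) listed in untreated samples only, in both groups and in streptomycin samples only, with the number of masses above each bar. Symbols above the bars mark the 11 saponin and aglycone rows by mass and by where they were listed, with nearly equal masses drawn over each other; those with sugars all lie at 634 Da or above and were in streptomycin samples only.

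Soyasaponin I carries glucuronic acid, galactose and a terminal rhamnose and is a major saponin of soybean seed. Its mass, 942.5193 Da, lay 0.514 ppm from the formula C48H78O18. It was at 2.92, 2.92, 2.59 and 2.58 in streptomycin samples 1 to 4 and listed at 0 in all 4 untreated samples. The treated mean was 2.75 ± 0.196 (SD, n = 4), and all 8 treated acquisitions listed the mass.

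The other glycosides with 3 sugars were fainter. Soyasaponin II, in which arabinose stands in place of galactose, was matched at 912.5081 Da (C47H76O17, -0.165 ppm). It was at 0.418, 0.446, 0.254 and 0.219 in the treated samples and listed at 0 in every untreated sample. Soyasaponin V, with a terminal glucose in place of rhamnose, was matched at 958.5144 Da (C48H78O19, 0.699 ppm). It was at 0.243, 0.248, 0.390 and 0.463 in the treated samples and likewise listed at 0 in every untreated sample.

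The opposite order of these last masses across the treated samples comes in part from acquisitions that did not list them. The first acquisition of samples 3 and 4 lacked soyasaponin II, and that of samples 1 and 2 lacked soyasaponin V. In the second acquisition soyasaponin II was at 0.294, 0.476, 0.507 and 0.437, and soyasaponin V at 0.487, 0.497, 0.403 and 0.477. Sample 3 was there the highest for soyasaponin II and the lowest for soyasaponin V. With the first acquisition alone neither mass was listed in enough samples to be tested. Both had coefficients of variation of 34.3% and 32.3% over the treated samples, against 4.41% to 15.1% for the 5 glycoside rows that all 8 treated acquisitions listed. The formulas of dehydrosoyasaponin I, the ketone form of soyasaponin I, and of kaikasaponin III, which has the core sophoradiol with 1 hydroxyl group fewer, had no row within 3 ppm.

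The glycosides with 2 sugars lack the terminal sugar of the longer chain. Soyasaponin III, with glucuronic acid and galactose, stood on 2 rows, 796.4609 Da (-0.009 ppm) and 796.4611 Da (0.243 ppm). The first row was at 1.53, 1.42, 1.58 and 1.51 in the treated samples. The second was at 4.53, 3.36, 3.29 and 3.75. Both were listed at 0 in the untreated samples, and the ion mode of a row is not recorded. The treated means were 1.51 ± 0.0666 and 3.73 ± 0.565 (SD, n = 4 each).

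Soyasaponin IV has arabinose in place of galactose and was matched at 766.4501 Da (C41H66O13, -0.316 ppm). It was at 1.88, 1.49, 1.42 and 1.42 in the treated samples, with a mean of 1.55 ± 0.220 (SD, n = 4), and listed at 0 in the untreated samples. Streptomycin sample 1 was the highest for this mass and for the second row of soyasaponin III. Kaikasaponin I, the sophoradiol counterpart of soyasaponin III, had no row within 3 ppm.

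The last glycoside step before the bare core is soyasapogenol B monoglucuronide. Its mass, 634.4081 Da, lay 0.026 ppm from C36H58O9. It was at 2.07, 2.15, 1.63 and 2.32 in the treated samples (mean 2.04 ± 0.295, SD, n = 4) and listed at 0 in the untreated samples. In all 7 glycoside rows the groups thus did not overlap, and the lowest treated sample value of any of them was 0.219. Such a listing was common, as 47.3% of all masses were in streptomycin samples only and 26.6% in untreated samples only.

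**Figure D2:**
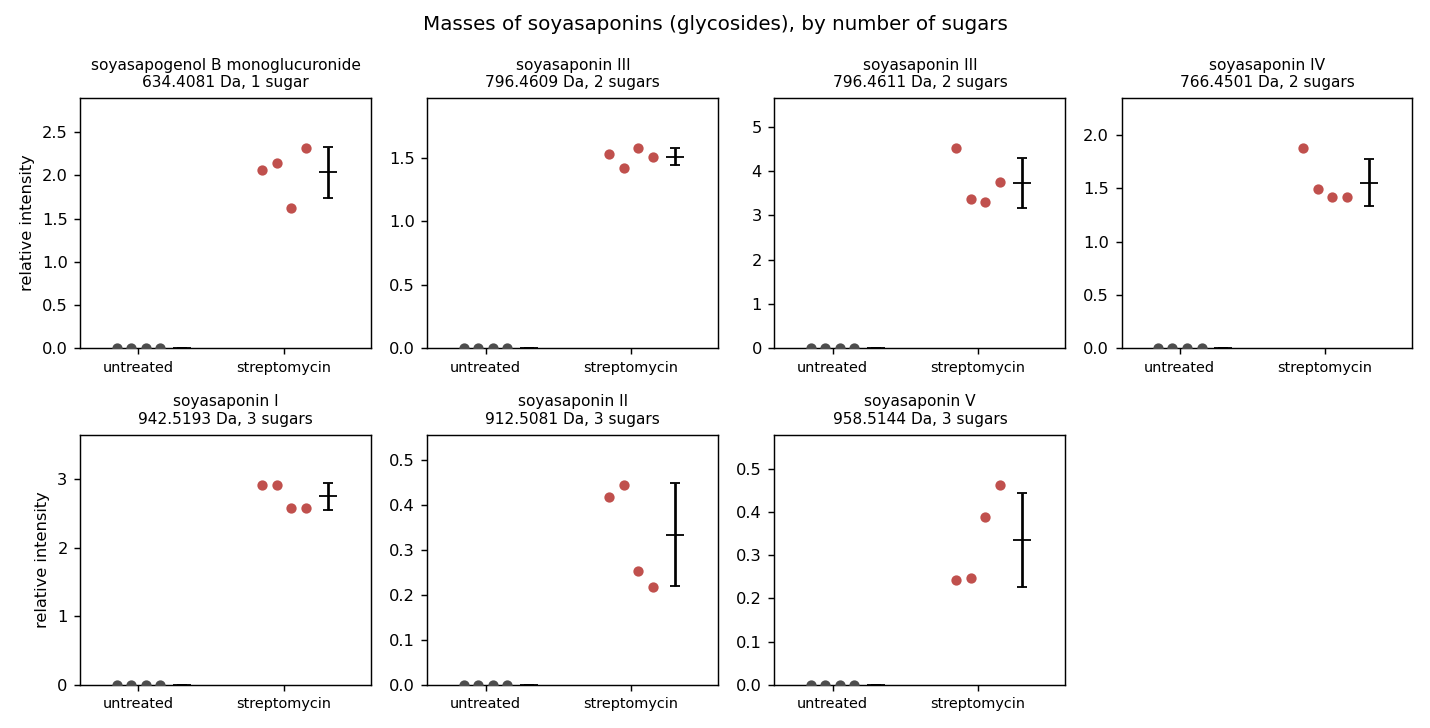
Relative intensity of the 7 glycoside rows in each sample (points, replicates 1 to 4 from left to right within a group) with the group mean and SD (bars), one panel per row, ordered by number of sugars, each with its own axis from 0. All untreated points lie at 0, and the treated points of soyasaponin I lie between 2.58 and 2.92.

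The rows form a ladder of sugar steps, which follows from the formulas and is shown to make the steps visible. Soyasaponin I differed from the lighter and the heavier row of soyasaponin III by 146.0584 and 146.0582 Da, against 146.0579 Da for a deoxyhexose such as rhamnose. Soyasaponin V differed from the same rows by 162.0535 and 162.0533 Da, against 162.0528 Da for a hexose. Soyasaponins II and IV differed by 146.0580 Da. Both rows of soyasaponin III differed from the monoglucuronide by a hexose, at 162.0528 and 162.0530 Da, and soyasaponin IV and the monoglucuronide by 132.0420 Da, against 132.0423 Da for a pentose. The monoglucuronide and soyasapogenol B differed by 176.0322 Da, against 176.0321 Da for glucuronic acid. It was across this last step that the listing changed from streptomycin samples to untreated samples. The part of a detection limit in this change was not tested.

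Soyasapogenol B, the core left when all sugars are gone, was matched at 458.3759 Da (C30H50O3, -0.208 ppm). It was at 1.35, 1.67, 0.816 and 1.23 in untreated samples 1 to 4 and listed at 0 in all streptomycin samples. Soyasapogenol A was matched at 474.3707 Da (C30H50O4, -0.443 ppm). It was at 0.938, 0.926, 0.257 and 0.278 in the untreated samples, and no streptomycin sample listed it. In untreated samples 3 and 4 only 1 of the 2 acquisitions listed soyasapogenol A, at 0.514 and 0.555, so their values are lowered by a 0 in the mean. The listed acquisitions of these samples were also below those of samples 1 and 2, at 0.629 to 1.22.

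The formula of soyasapogenol E, C30H48O3, was the most intense of the set in untreated faeces and the only one listed in both groups. It stood on 2 rows, both at 456.3604 Da (0.120 ppm). The first row was at 26.7, 54.2, 46.5 and 49.0 in the untreated and at 2.28, 2.22, 2.74 and 3.60 in the streptomycin samples. Its mean fell from 44.1 ± 12.0 to 2.71 ± 0.636 (SD, n = 4 each), a 16.3-fold difference (log2 -4.0 ± 0.26 SE, limma adjusted p = 1.79e-06). The lowest untreated sample, at 26.7, lay above the highest treated sample, at 3.60.

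The second row of this formula was at 16.6, 32.3, 20.7 and 25.7 in the untreated and at 2.50, 2.96, 2.16 and 2.69 in the streptomycin samples. Its mean fell from 23.9 ± 6.76 to 2.58 ± 0.336 (SD, n = 4 each), a 9.25-fold difference (log2 -3.18 ± 0.22 SE, limma adjusted p = 2.33e-06). Again the groups did not overlap. Of the 633 masses listed in both groups, 38.7% were called lower and 20.7% higher, and the median log2 difference was -0.47. The 2 calibrant masses, added to every extract, were higher in streptomycin samples, at 193 ± 21.7 against 147 ± 9.31 and at 138 ± 12.4 against 100.3 ± 12.0 (SD, n = 4). Over the 22 alternatives tried, which include 3 other scalings, the log2 difference of the first row lay between -4.42 and -3.61 and that of the second between -3.59 and -2.79.

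**Figure D3:**
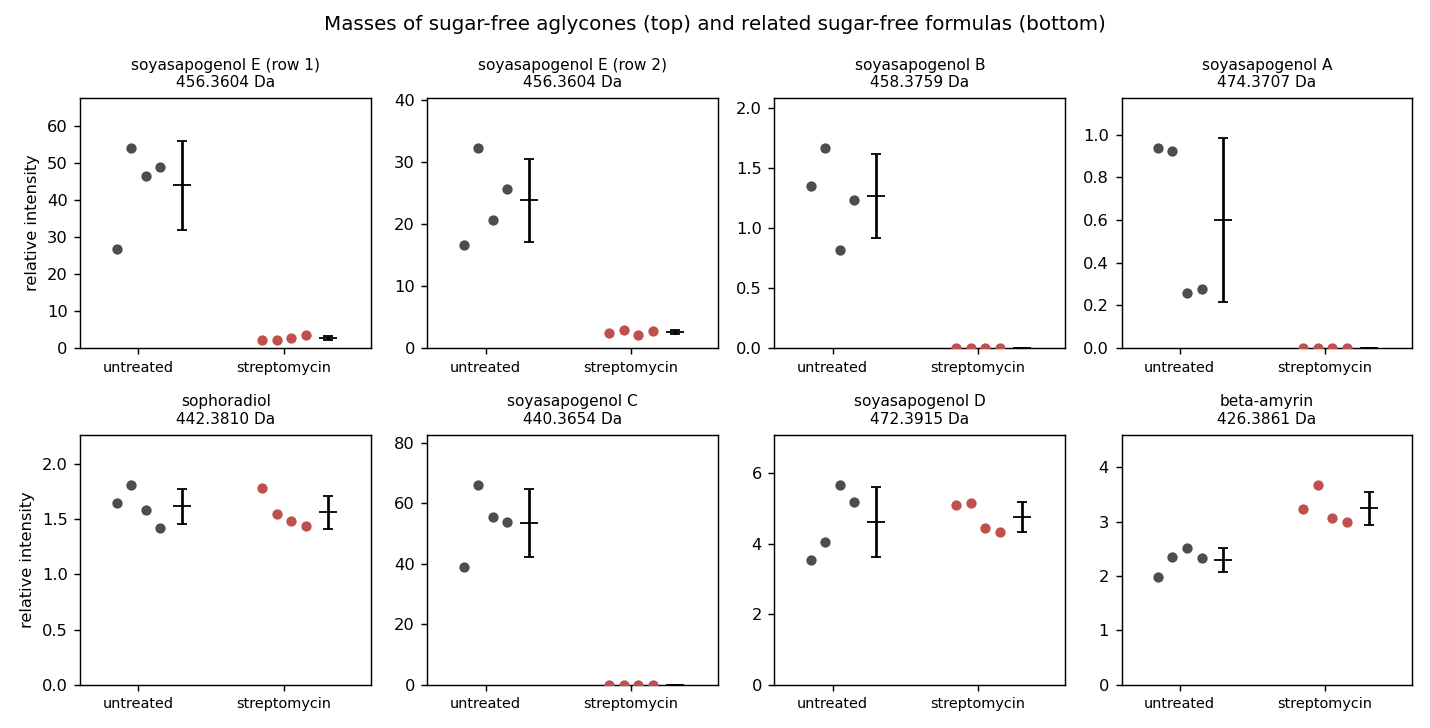
Relative intensity of the 4 sugar-free rows (top) and of 4 related sugar-free formulas (bottom) in each sample (points, replicates 1 to 4 from left to right within a group), with the group mean and SD (bars), each panel with its own axis from 0. Points of the top row lie lower or at 0 in streptomycin samples; sophoradiol and soyasapogenol D overlap between the groups.

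No structural pair could be tested for a difference in response. Of 15 pairs of formulas that differ by 1 sugar, by an exchanged sugar or by 1 named change in the core, 11 had both formulas matched. In 8 of these both formulas were in streptomycin samples only, as were 47.3% of all masses. These pairs join glycosides to glycosides and reuse the same rows, which were all in streptomycin samples only. Their equal listing was thus fixed beforehand and cannot show whether the loss of rhamnose, the exchange of galactose for arabinose or the exchange of rhamnose for glucose matters. The pair of soyasapogenol B and its monoglucuronide, which differ by glucuronic acid, was the 1 pair listed in opposite groups. It was also the sole pair of a glycoside with a core. Soyasapogenols A and B, which differ by a hydroxyl group, were both in untreated samples only. Soyasapogenol B was in untreated samples only while soyasapogenol E, its ketone, remained listed in treated samples at lower intensity. The untreated mean of soyasapogenol B was 1.27, against 44.1 and 23.9 for the soyasapogenol E rows. The lowest treated value listed at 450 Da or above was 0.130. A fall of soyasapogenol B as large as that of soyasapogenol E could therefore go unlisted, and the part of a detection limit was not tested. None of the pairs had both members in at least 3 samples of each group, and the number of pairs tested is 0.

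A list of 20 further formulas of the pathway, from DDMP saponins (the native seed forms, which carry a heat-labile pyranone group) to free chain sugars, gave 9 rows for 9 formulas. Of these, 6 were higher, 1 was lower and 2 did not pass, against 52.7% higher and 36.7% lower of all masses. All 4 glycoside rows were in streptomycin samples only, as were 47.3% of all masses. Soyasaponin gamma g, the DDMP form of soyasaponin III, was matched at 922.4930 Da and was at 0.932, 0.476, 0.783 and 0.794 in the treated samples; the same mass is dehydrosoyasaponin I less water. The hexosyl glucuronide of soyasapogenol E, at 794.4449 Da, was at 3.05, 4.85, 4.21 and 2.71. Sophoradiol glucuronide, which shares its formula with a hexoside of soyasapogenol E, was matched at 618.4133 Da and was at 0.771, 0.708, 0.603 and 0.680.

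The glucuronide of soyasapogenol E, at 632.3926 Da, was at 6.68, 16.5, 8.03 and 4.54 in the treated samples. A row lighter by a proton, 631.3853 Da, and a row lighter by hydrogen chloride, 596.4159 Da, had intensities equal to it within 0.5%. Which ion form the 3 rows belong to was not tested. Of the DDMP formulas, those of soyasaponins beta g, beta a and alpha g are heavier than the highest mass of the table, 996.6811 Da, and soyasaponin gamma a had no row within 3 ppm. Of the 7 chain sugars and sugar fragments only hexose was matched, at 180.0634 Da. It was at 0.759, 1.42 and 1.48 in treated samples 2 to 4 and listed at 0 in treated sample 1 and in the untreated samples.

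The related sugar-free formulas went different ways. Soyasapogenol C, which is soyasapogenol B less water, was at 38.9, 66.2, 55.4 and 53.8 in the untreated samples (440.3654 Da) and listed at 0 in all treated samples. Sophoradiol, also the formula of the plant triterpene betulin, was at 1.62 ± 0.161 in untreated and 1.56 ± 0.151 in treated samples (442.3810 Da; log2 -0.05 ± 0.11 SE, limma adjusted p = 0.688). Its direction followed the scaling. It was higher by 0.34 after median-ratio scaling (limma adjusted p = 0.0189), but scaling to the calibrants gave -0.47 (limma adjusted p = 0.0197). Soyasapogenol D, with 1 carbon more than the others, was at 4.61 ± 0.984 and 4.75 ± 0.435 (472.3915 Da; log2 0.07 ± 0.17 SE, limma adjusted p = 0.720), with an opposite sign after division by total intensity and after calibrant scaling, which gave -0.35 (limma adjusted p = 0.0414). Beta-amyrin, the triterpene alcohol from which the soyasapogenols are built in the plant, was at 2.30 ± 0.222 and 3.25 ± 0.308 (426.3861 Da). Its log2 difference of 0.50 ± 0.11 SE passed (limma adjusted p = 0.0039) but not on the calibrant scale, where it was 0.08 (limma adjusted p = 0.398).

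Other rows of the table bear on how far a formula stands for a saponin. No member had a carbon-13 row within 3 ppm, and only 5 of the 60 most intense masses of the table had one. Rows at 8 ion-form spacings were searched in both directions within 1 ppm, a step added after the values were seen. Soyasaponins I and III and the monoglucuronide had none, and soyasaponins II and IV had only heavier rows, at the spacing of formic acid. Formic acid was part of the positive-mode diluent, and 5 of the 11 saponin and aglycone rows lay above another row by its mass. The formula of soyasapogenol E equals that of a lighter mass, 410.3549 Da, plus formic acid, and this lighter mass was at 49.3 ± 9.02 in untreated and 12.9 ± 3.26 in treated samples (SD, n = 4). For soyasapogenol B the lighter mass, 412.3705 Da, was at 12.8 ± 2.26 and 9.18 ± 0.564, and for soyasapogenol A, 428.3654 Da, it was at 150 ± 18.7 and 199 ± 18.01. For soyasaponin V it was the mass of soyasaponin II, and of the related formulas sophoradiol, soyasapogenol C and soyasapogenol D also had such a lighter row, for soyasapogenol D that of beta-amyrin. The part of such adducts in these rows was not tested.

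The samples themselves were alike in depth within groups. Untreated samples listed 1210 to 1270 masses with summed intensities of 19761 to 20140, and streptomycin samples 1633 to 1768 masses with 21600 to 23221. Intensities have no known number of ions behind them, so no counting interval can be given. The acquisitions of streptomycin sample 1 were equal within 0.1% for 52% of the masses that both listed, against 0.833% to 2.43% in the other 7 samples. Of the saponin rows 4 of 8 were equal in this sample: soyasaponin IV, the monoglucuronide, the heavier row of soyasaponin III and the first row of soyasapogenol E. Without this sample the counts of 7 higher and 4 lower rows were the same.

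**Figure D4:**
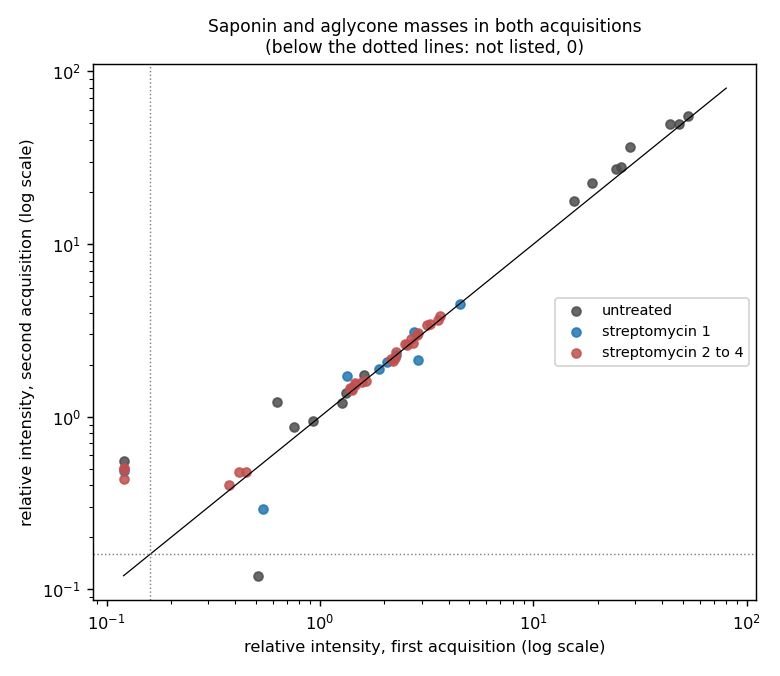
Relative intensity of every saponin and aglycone row in the first (horizontal) and second (vertical) acquisition of each sample, on log scales; the line marks equal values, and points beyond the dotted lines were not listed (0) in that acquisition. Points follow the line above an intensity of about 1, and the unlisted acquisitions belong to soyasaponins II and V and soyasapogenol A, all under 0.6 in the acquisition that listed them.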

How the data were processed

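The deposited file gives, for 2429 neutral masses (Da), a linear relative intensity in 2 acquisitions of 8 samples. Per the series text, spectra of 200 scans covered m/z 150 to 1100 in both ion modes, with a mass accuracy within 2 ppm. The reference of the intensities, the peak picking and the joining of ion modes were not given in the sources used here.

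Formula masses came from pyteomics 5.0.1. Sample values were log2 transformed with 0 set to the lowest sample value, 0.0738, and tested with limma 3.58.1 (R 4.3.3; lmFit, eBayes) with Benjamini-Hochberg adjustment at 0.05 and no replicate block. A mass needed 3 listed samples in either group, which all 2429 had. The fit was tested on simulated data. All rows within 3 ppm were named, as were rows of the related list. Members and lists were chosen with earlier results of these data known. Alternatives were other values for 0, filters, scalings, tests, acquisitions, tolerances, a replicate block and leaving out each sample.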

Additional observations from a re-analysis of the deposited data

Results flagged for a closer look

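Soyasaponin IV, at 766.4501 Da, was at 1.88 in streptomycin sample 1, apart from the other treated samples at 1.42 to 1.49. The gap made up 0.841 of the range of the 4 samples. In this sample both acquisitions of the mass were equal within 0.1%, and their part in the value was not tested. Of 13 groups of 4 with unequal values among the saponin rows this was the 1 that stood out, and chance sets apart about 1 in 20.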

How the results depend on the processing

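The counts of 7 higher and 4 lower rows were tried under 27 alternatives. The count of higher rows was 5 to 7, and the lowest came from setting values under 1 to 1 and from the first acquisition alone, which end the calls of soyasaponins II and V. The count of lower rows was 2 with values under 1 set to 1, where soyasapogenols A and B did not pass, 3 when each formula kept its nearest row alone, and 4 otherwise. Leaving out each sample gave 7 to 7 higher and 4 to 4 lower. The log2 differences of both soyasapogenol E rows passed under all 22 alternatives run for them. Sophoradiol turned to 0.34 on the median-ratio scale and ranged from -0.11 to 0.0077 when samples were left out. Soyasapogenol D turned to -0.095 after division by total intensity, -0.35 on the calibrant scale and -0.011 with the first acquisition, and ranged from -0.054 to 0.17 when samples were left out. No structure pair had both members in at least 3 samples of each group, and none was run under the alternatives. The labels do not say whether same-numbered samples share a mouse. The deviations of same-numbered samples correlated at 0.0301 to 0.124 over 539 masses, and those of differently numbered samples at -0.191 to 0.124. These ranges overlap and do not decide the question. With the replicate block the counts were again 7 and 4.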

Other observations

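Further glycoside formulas were searched in a set of 5 cores and 10 sugar chains, chosen after the values were seen and given as a description. Its 43 distinct formulas matched 17 rows for 15 formulas, and all 17 rows were in streptomycin samples only. Of all masses 47.3% were in streptomycin samples only, and between 600 and 700 Da, where 6 of the rows lie, 144 masses were, against 45 in both groups and 34 in untreated samples only. Of the 17 rows, 7 are rows described above and 3 belong to the related list. The remaining 7 rows carry formulas of soyasapogenol A glycosides. The glucuronide, at 650.4030 Da, was at 1.27, 1.26, 0.901 and 1.14 in the treated samples. The glucuronide with a hexose stood on 2 rows, 812.4557 Da at 0.745 ± 0.174 and 812.4561 Da at 1.15 ± 0.266 (SD, n = 4), and both also lie at the mass of soyasaponin IV plus formic acid.

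Sugar-free C30 formulas with 44 to 50 hydrogens and 1 to 7 oxygens, also chosen after the values were seen, matched 35 rows. By limma 22 of them were lower and 9 higher, while 4 did not pass; of all masses 36.7% were lower and 52.7% higher. The directions differed between formulas. All 17 rows of C30H46 and C30H48 with 1 to 5 oxygens were lower, a subset also chosen after the values were seen. Both soyasapogenol E rows and soyasapogenol C are among them. As the subset was chosen with the directions known, it cannot show that neighbouring formulas share one. After median-ratio scaling, and with the first acquisition alone, 16 of the 17 rows were lower and 1 did not pass. In contrast, C30H46O7 (518.3245 Da, log2 1.82) and C30H44O6 (500.3137 Da, log2 1.02) were higher and C30H46O6 (502.3296 Da, log2 0.62) did not pass. The most intense, C30H46O at 422.3549 Da, fell from 79.0 ± 15.8 to 5.26 ± 1.05 (SD, n = 4). These formulas differ by hydrogen, oxygen and water, and how many compounds they stand for was not tested.

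The ratio of the first to the second soyasapogenol E row was 1.61, 1.68, 2.24 and 1.90 in the untreated and 0.911, 0.750, 1.27 and 1.33 in the streptomycin samples.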
